A study of Papio anubis with 24 samples.

Results

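Dense interior autosomal windows were 1 Mb stretches of the numbered baboon autosomes that lay wholly more than 10 Mb from position 0 and from the end of the last peak on their chromosome, and that held 120 or more peaks of the embryonic stem cell (ESC) list. The rule kept 56 of 2164 interior windows, out of 2604 autosomal windows in all. The members were the peaks that started in these windows: 8459 of the 151630 autosomal ESC peaks (5.58%) and 2702 of the 40590 autosomal peaks of the induced pluripotent stem cell (iPSC) list (6.66%). The ESC count chose the windows, so ESC counts in them are given as a description and support nothing. The iPSC list entered the rule only through the chromosome spans.

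The study measured DNA methylation in pluripotent cells of the olive baboon, Papio anubis, with MeDIP-seq. Here an antibody against 5-methylcytosine precipitates fragmented DNA and the fragments are sequenced beside untreated input DNA. ESC came from the lines B4 and B15 and iPSC from the lines 160-2 and M14939#3, all grown on feeder cells, with 3 MeDIP and 3 input libraries per line. In 5 of the 6 M14939#3 libraries, title and cell line label disagree on the number behind the hash sign. The files give 1 peak list per cell type, with all lines and replicates behind it, so no value exists per library, no replicate error can be given, and no test between cell types is possible. Cell type and line cannot be told apart, any difference in depth between the lists is part of every ratio below, and a peak is an average over the cells of a culture. Neither the sex nor the karyotype of the lines, nor whether feeder DNA reached the libraries, was examined.

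Methyl groups on cytosine, placed mostly at CG dinucleotides, are written by DNA methyltransferases and copied after replication. In mammals most CG sites outside CpG islands carry the mark, in pluripotent cells as well as in differentiated ones, and reprogramming of somatic cells to iPSC involves both loss and gain of methylation. An antibody against methylcytosine recovers fragments best where many methylated sites stand close together. Gene-rich stretches and the ends of chromosomes are often rich in CG dinucleotides. The CG content of the windows was not examined.

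The member windows lay on 13 of the 20 autosomes and mostly in blocks. Chromosome 19, with 15 members among its 30 interior windows, and chromosome 3, with 12 among 160, together held 27 of the 56. Chromosome 10 had 8, chromosome 20 had 5 and chromosome 11 had 3. Chromosomes 1, 4, 9, 13 and 16 had 2 each, and chromosomes 6, 7 and 14 had 1 each. The other chromosomes (2, 5, 8, 12, 15, 17 and 18) had none. Of the members, 42 stood in 13 runs of 2 or more adjoining windows and 14 stood alone. The nearest chromosome end was 10.4 to 61.1 Mb away, with a median of 17.8 Mb.

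ESC counts in the members ran from 120 to 321 with a median of 142. The 10 windows with most ESC peaks were on chromosome 3 (34 to 35 Mb with 321, 33 to 34 Mb with 250, 35 to 36 Mb with 216, 39 to 40 Mb with 201, 43 to 44 Mb with 191, 45 to 46 Mb with 176 and 38 to 39 Mb with 172), on chromosome 19 (15 to 16 Mb with 201), on chromosome 13 (89 to 90 Mb with 196) and on chromosome 11 (the window starting at 121 Mb, with 167). Positions are those of the lists, whose genome build the sources used here do not give, and no gene was assigned to any of them. Just inside the limit stood chromosome 19 from 29 to 30 Mb with 120 ESC and 34 iPSC peaks, chromosome 4 from 105 to 106 Mb with 121 and 39, and chromosome 10 from 16 to 17 Mb with 1 ESC peak more and 36 iPSC peaks. Just outside it no interior window had 1 ESC peak fewer than the limit. Chromosome 14 from 12 to 13 Mb had 118 ESC and 55 iPSC peaks and chromosome 19 from 35 to 36 Mb had 118 and 64. Another 5 windows had 1 ESC peak fewer still and 20 to 44 iPSC peaks, the first of them by position being chromosome 1 from 11 to 12 Mb with 33. The iPSC counts on the outer side of the limit thus spanned those on the inner side.

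The iPSC list was dense in these windows too. They held 18 to 146 iPSC peaks each, with a median of 44, and the mean of 48.2 per window was 5.38 times the 8.97 of the 2108 other interior windows (counting interval 5.17 to 5.60). For ESC, whose count defined the groups, the means were 151.1 and 43.0. Of the 56 members, 54 reached the 90th percentile of interior windows by iPSC count, which is 22 peaks, against 10.8% of all interior windows. The members that did not were chromosome 10 from 72 to 73 Mb with 18 iPSC peaks and chromosome 20 from 56 to 57 Mb with 19. The 61 interior windows with most iPSC peaks (39 or more) included 38 members, which is 62.3% of those windows and 67.9% of the members. Across the 56 members the counts of the lists had a Pearson correlation of 0.84 and a Spearman correlation of 0.64, and without the 12 windows of chromosome 3 these were 0.58 and 0.59 over 44 windows. Neighbouring windows are not independent, so these describe the windows and carry no p.

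**Figure D1:**
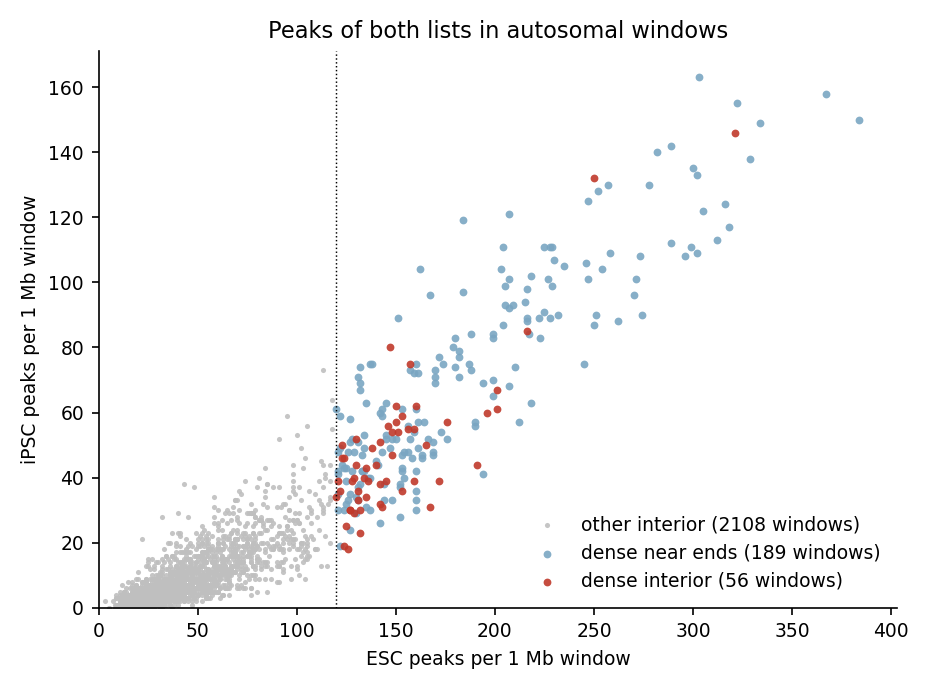
Each point is a 1 Mb autosomal window, with its ESC peaks on the horizontal axis and its iPSC peaks on the vertical axis. Red points are the 56 dense interior windows, blue points the 189 windows of 120 or more ESC peaks nearer to an end, and grey points the 2108 other interior windows. The dotted line marks 120 ESC peaks, and the 2 red points farthest to the right are chromosome 3 windows with 321 and 250 ESC peaks.

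Set against the ESC list, the iPSC list was denser in the members than in the rest of the interior. The members held 31.9 iPSC peaks per 100 ESC peaks (exact Clopper-Pearson interval 30.6 to 33.4), against 20.8 (20.5 to 21.2) in the other interior windows and 26.8 over all autosomes. Intervals here and below are at 95% and reflect counting error alone. Neighbouring peaks are not independent, so these intervals are too narrow by an unknown amount. Of the 56 members, 38 (67.9%) lay above the ratio of all autosomes, as 21.6% of all interior windows did. Interior windows grouped by ESC count gave 14.7 iPSC peaks per 100 ESC peaks under 30 ESC peaks, 19.7 at 30 to 59, 24.0 at 60 to 89 and 25.9 from 90 up to the limit. Pooled over chromosomes, the ratio of the members was thus the highest of these groups. With the ESC list shortened to the length of the iPSC list the ratios were 117.6 in the members and 86.5 in the other interior windows.

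Dense windows near the chromosome ends carried still more iPSC peaks for their ESC peaks. The 189 such windows held 35222 ESC and 13643 iPSC peaks, or 38.7 per 100 (38.0 to 39.5). The same order appeared at like ESC counts. Windows of 120 to fewer than 150 ESC peaks gave 29.6 (27.8 to 31.4) in the interior and 34.8 (33.3 to 36.3) near the ends, and windows of 150 to fewer than 200 gave 31.9 (29.5 to 34.5) and 36.5 (35.2 to 37.9). At 200 or more ESC peaks the values were 41.3 (37.1 to 45.9) over 5 interior windows and 42.1 (40.9 to 43.3) over 65 near the ends, so that the intervals overlapped. The members of 200 or more were 4 on chromosome 3 and 1 on chromosome 19.

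**Figure D2:**
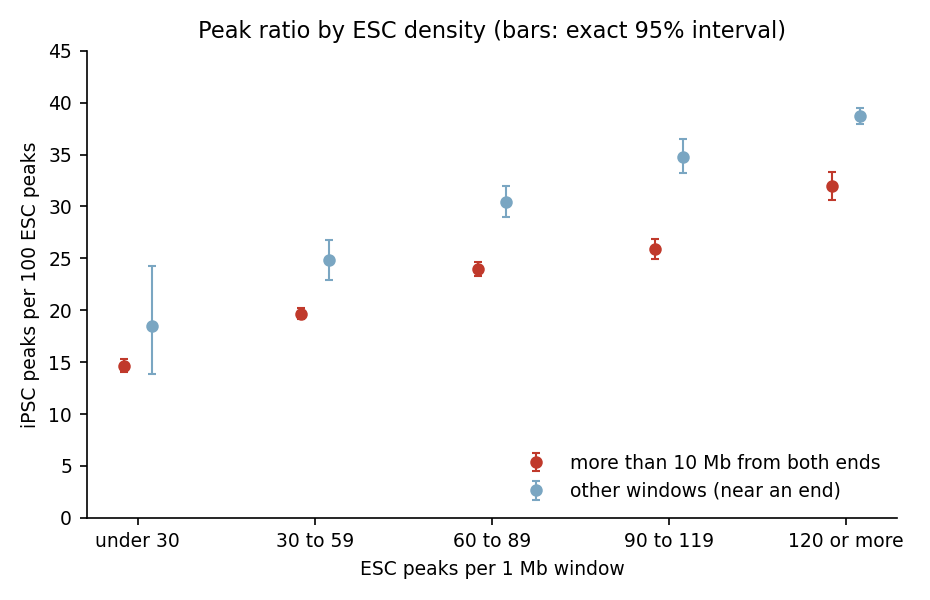
The number of iPSC peaks per 100 ESC peaks is plotted for windows grouped by their ESC peaks, in red for windows more than 10 Mb from both ends and in blue for all others. Bars are exact 95% intervals for counting error. Both series rise from left to right, and the blue value is above the red one in each group, with 38.7 against 31.9 in the densest.

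The pooled ratio depended on which chromosomes held the members. If each member had carried iPSC peaks at the ratio of the other interior windows of its own chromosome, there would have been 2252 of them, and the observed 2702 were 1.20 times that number. This is a smaller excess than that of the pooled ratios, 31.9 against 20.8. Chromosome 3 held most of this excess. Its 12 windows gave 35.9 iPSC peaks per 100 ESC peaks (33.1 to 39.0) against 18.8 in its other interior windows, and without chromosome 3 the observed number was 1.04 times the own-chromosome value. On chromosome 19 the order was the other way, with 35.4 (32.6 to 38.4) in 15 members and 38.2 in the other 15 interior windows. Without chromosome 19 the observed number was 1.37 times the own-chromosome value. In all, the members' ratio was the higher on 8 of 13 chromosomes, but on several the values were close, as on chromosome 10, where both were 30.7. Set against interior windows of the same chromosome from 90 ESC peaks up to the limit, the observed number was 1.008 times the own-chromosome value, with 7 chromosomes higher and 6 lower. It was 0.878 times without chromosome 3 and 1.25 times without chromosome 19. Summed over chromosomes, this comparison thus showed no counterpart of the pooled step from 25.9 to 31.9, while single chromosomes went either way. Against the dense windows near the ends of the same chromosome the members' ratio was the lower on 12 of 13 chromosomes, and the observed number was 0.813 times the near-end value. Chromosome 6, with a single member, was the exception.

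**Figure D3:**
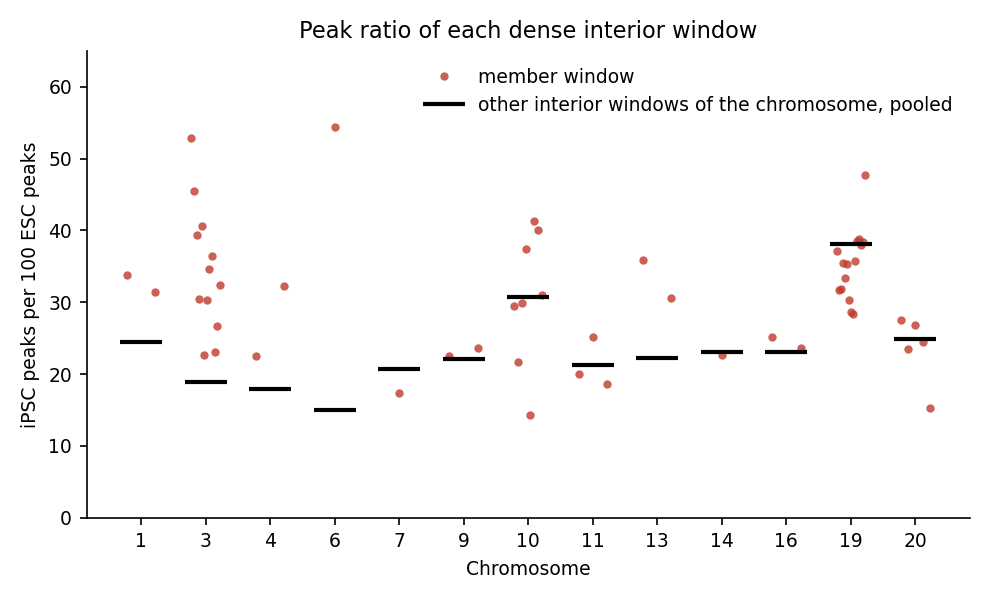
Red points give the iPSC peaks per 100 ESC peaks of each of the 56 member windows, by chromosome and, within a chromosome, from left to right in order of position. Black dashes give the pooled ratio of the other interior windows of the same chromosome. On chromosome 3 all 12 points lie above the dash at 18.8, while on chromosome 19 most of the 15 points lie below the dash at 38.2.

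Chromosome 3 carried the largest block. Its 12 members stood in a run of 8 windows from 33 to 41 Mb and a run of 4 from 42 to 46 Mb, separated by the window from 41 to 42 Mb with 79 ESC and 13 iPSC peaks. The runs held 1570 ESC and 607 iPSC peaks, or 38.7 per 100 (35.1 to 42.5), and 657 and 193, or 29.4 (24.9 to 34.5). The edge at the lower coordinate was sharp in both lists: the window from 31 to 32 Mb had 39 ESC and 5 iPSC peaks, the next had 94 and 32, and the window from 33 to 34 Mb had 250 and 132. The edge at the higher coordinate was more gradual, with 113 and 30 from 46 to 47 Mb and 68 and 16 in the next window. Inside the block the densest windows of both lists were at its lower coordinates. From 34 to 35 Mb there were 146 iPSC peaks, the most of any interior window. The ratio fell from 52.8 at 33 to 34 Mb to 45.5, 39.4 and 30.5 in the next windows. It was 40.7 from 37 to 38 Mb and went up and down from there, with 36.5 from 42 to 43 Mb. The lowest ratios of the block were 22.7 from 38 to 39 Mb and 23.0 from 43 to 44 Mb, where ESC peaks numbered 172 and 191.

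**Figure D4:**
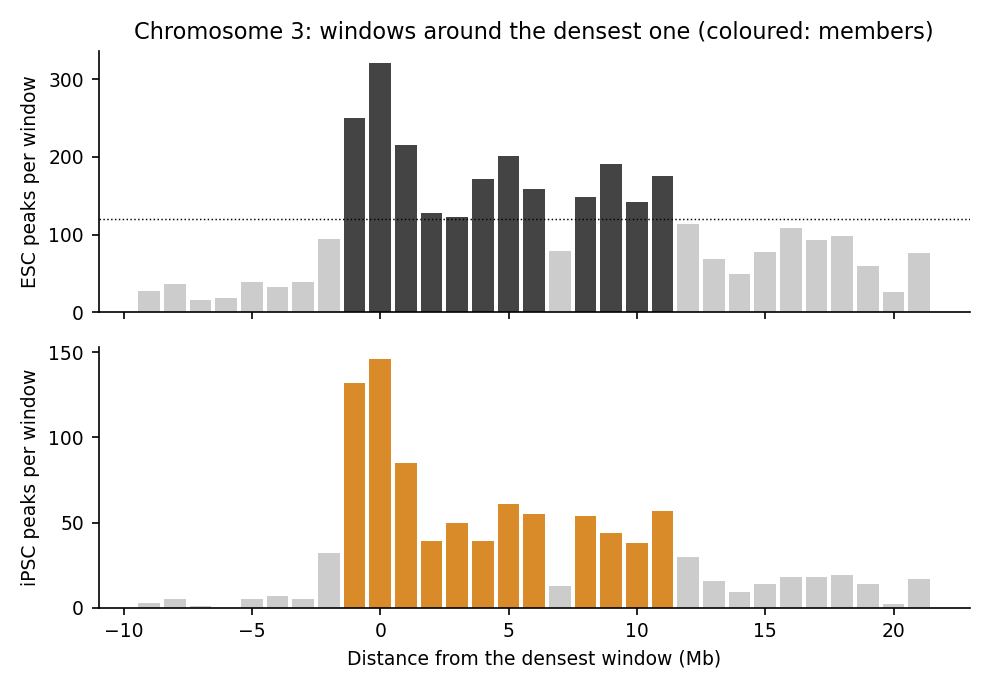
Bars give the ESC (upper) and iPSC (lower) peaks of each 1 Mb window of chromosome 3, by distance from the window with 321 ESC peaks. Coloured bars are member windows, grey bars are not, and the dotted line marks 120 ESC peaks. Both lists step up at the left edge of the block and fall more slowly at the right.

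Chromosome 19, the shortest autosome in the lists, held 5 groups of members. They were a run of 7 windows from 11 to 18 Mb with 1067 ESC and 357 iPSC peaks, the single window from 27 to 28 Mb with 136 and 39, and runs from 29 to 31 Mb with 271 and 88, from 32 to 34 Mb with 313 and 121, and from 38 to 41 Mb with 453 and 188. Ratios in the runs went from 32.5 to 41.5 per 100. The first run starts and the last run ends close to the limit of 10 Mb from an end, so on this chromosome the interior borders directly on the dense ends. On chromosome 10 a run from 59 to 62 Mb held 400 ESC peaks, with 29.2 iPSC peaks per 100, and a run from 77 to 80 Mb held 409 ESC and 154 iPSC peaks (37.7), while the single window between them from 72 to 73 Mb had 126 and 18. The other runs were pairs of windows on chromosome 4 from 104 to 106 Mb (250 and 68), chromosome 9 from 12 to 14 Mb (269 and 62), chromosome 11 from 120 Mb (302 and 65), chromosome 13 from 88 to 90 Mb (338 and 111) and chromosome 20 from 25 to 27 Mb (304 and 78). Their ratios were 21.5 to 32.8 per 100.

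Among single members the ratio ran from 14.3 to 54.4 per 100, with quartiles of 24.3 and 36.6. Highest were chromosome 6 from 135 to 136 Mb with 80 iPSC to 147 ESC peaks (54.4, interval 40.9 to 71.9), chromosome 3 from 33 to 34 Mb with 132 to 250 (52.8) and chromosome 19 from 40 to 41 Mb with 75 to 157 (47.8). Lowest were chromosome 10 from 72 to 73 Mb with 18 to 126 (14.3, interval 8.20 to 23.5), chromosome 20 from 56 to 57 Mb with 19 to 124 (15.3) and chromosome 7 from 15 to 16 Mb with 23 to 132 (17.4). These windows, with the exception of that on chromosome 3, had between 124 and 157 ESC peaks. The intervals of the highest and lowest did not overlap, but these windows were picked as the extremes of this ratio. The gap between them is thus fixed in part by the choice.

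The window on chromosome 6, singled out as the one of highest ratio, was the highest member in some other measures too. In it 96.2% of iPSC peaks lay on ESC peaks and 51.0% of ESC peaks on iPSC peaks, the highest shares of any member. The ESC share rises with the number of iPSC peaks per ESC peak, so it is no separate measure. Its peaks were the widest by median, at 316 bp for ESC and 361.5 bp for iPSC, against medians of 208 to 266.5 bp and 211.5 to 295 bp in the other members. It held 9 of the 18 ESC peaks of 1 kb or more found in all members. The recovered local background was also highest there in both lists, at 59.96 fragments for ESC and 48.5 for iPSC. Its peaks were clumped: the stretch from 600 to 700 kb into the window held 41 ESC and 23 iPSC peaks, that from 100 to 200 kb held 23 and 18, and that from 200 to 300 kb held 5 and 0. Clumping did not set it apart. Its fullest 100 kb bin held 27.9% of its ESC peaks, against 28.0% on chromosome 10 from 77 to 78 Mb. For iPSC peaks the value was 28.75%, against 36.8% on chromosome 20 from 56 to 57 Mb. The adjoining windows had 58 ESC and 14 iPSC peaks at the lower coordinate and 79 and 18 at the higher, so both lists dropped within 1 window on either side.

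Windows beside the members were on average denser than the rest of the interior. The 51 windows that adjoined a member without being one, those on chromosome 6 among them, held 90.3 ESC peaks on average (20 to 194) and 25.9 iPSC peaks (4 to 69). Both means are above those of other interior windows, at 43.0 and 8.97. The median iPSC count of other interior windows was 6. Some of the 51 adjoining windows lie within 10 Mb of an end, which is why a few exceed 120 ESC peaks. Windows nearer to an end with fewer than 120 ESC peaks averaged 68.9 ESC and 21.3 iPSC peaks, so the comparison with interior windows alone is uneven. Inside the members, every 100 kb bin of every window held at least 1 ESC peak, and the fullest bin held 12.7 to 28.0% of a window's ESC peaks. The iPSC peaks occupied 7 to 10 of the 10 bins, with a median of 10. The median gap between neighbouring peaks of a window was 3516 bp for ESC and 9190 bp for iPSC (11241 and 34070 bp in other interior windows), and 19.6% of ESC and 12.02% of iPSC gaps were 1 kb or shorter.

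Of the 2702 iPSC peaks in the members, 1905 (70.5%, 68.7 to 72.2%) overlapped an ESC peak by at least 1 bp, where 66.5% of all autosomal iPSC peaks did so. In other interior windows the share was 63.9% (63.3 to 64.6%) and in dense windows near the ends 70.6% (69.8 to 71.3%). In the other direction, 1929 of 8459 ESC peaks (22.8%, 21.9 to 23.7%) met an iPSC peak, against 18.1% of all autosomal ESC peaks, 13.5% in other interior windows and 27.9% in dense windows near the ends. Nearly equal numbers of ESC and iPSC peaks overlapped (1929 and 1905). The ESC share thus largely restates the ratio of the peak counts together with the iPSC share. A denser list is met more often by position alone: ESC peaks covered 3.92% of the bases of the members and 1.02% of other interior windows, and iPSC peaks 1.55% and 0.262%. With the ESC list shortened as above, keeping only its peaks of highest −log10 q-value, 30.5% of iPSC members (28.8 to 32.3%) lay on ESC peaks. In that setting 35.7% of ESC members lay on iPSC peaks. What part of the shares position alone makes up was not tested. Among single members the iPSC share ran from 50% (chromosome 3 from 37 to 38 Mb) to 96.2%, and the ESC share from 9.52% (chromosome 10 from 72 to 73 Mb) to 51.0%. The 797 iPSC peaks without an ESC partner were a median of 2546 bp from the nearest ESC peak, 25.8% of them within 1 kb, against 5550 bp and 13.6% in other interior windows.

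Peaks of the members rose over a higher local background, at a lower fold. The fold enrichment is the authors' ratio of fragments piled up at the summit to a local background, and both terms were worked out from that fold together with its −log10 p-value. For ESC peaks the median background was 36.7 fragments in the members and 24.2 in other interior windows, the median pileup 82 and 60, and the median fold 2.14 and 2.38. For iPSC peaks the background was 29 and 22.7 fragments, the pileup 73.2 and 60.7, and the fold 2.47 and 2.63. Dense windows near the ends had a background of 43.8 fragments for ESC and 29.5 for iPSC, so the members lay between the other groups in the ESC list and close to the dense ends in the iPSC list. From which libraries the background was taken is not stated, and whether copy number, base composition or mappability raises it was not tested. A Poisson p-value of a given size needs a lower fold where the background is higher. How far this sets the lower median fold of the members was not tested. Over single members the median ESC background ran from 21.7 (chromosome 10 from 72 to 73 Mb) to 59.96 (chromosome 6), which were also the windows of lowest and highest iPSC ratio.

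**Figure D5:**
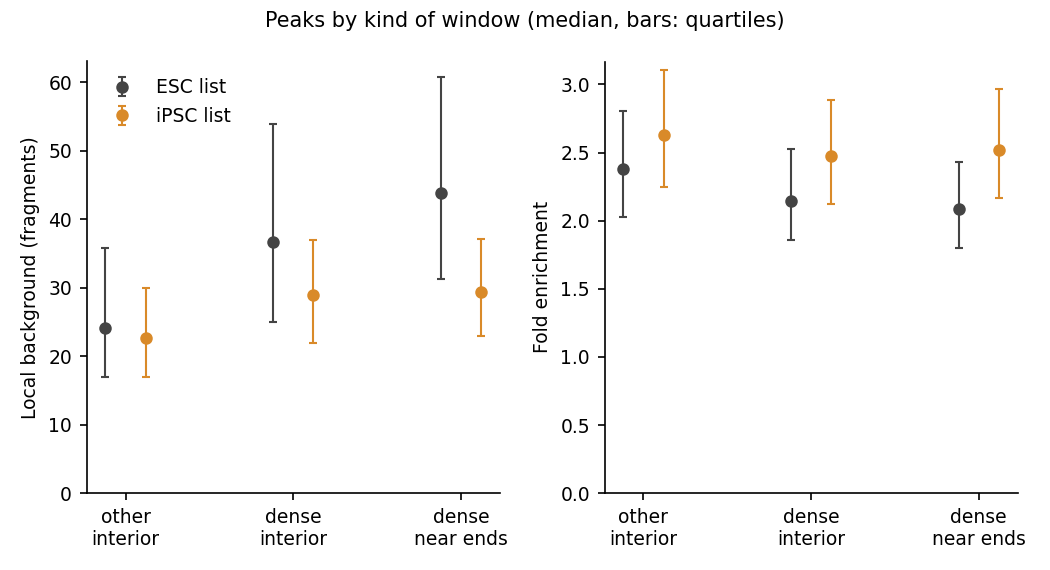
Points are medians and bars quartiles over all peaks of the ESC list (dark) and the iPSC list (orange) in other interior, dense interior and dense near-end windows, with the recovered local background in fragments on the left and the authors' fold enrichment on the right. Levels are relative to each list's own libraries and are to be read within a list. The ESC background goes from 24.2 to 36.7 and 43.8 fragments and the ESC fold from 2.38 to 2.14 and 2.08.

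The median width was 223 bp for ESC (211 bp in other interior windows) and 247 bp for iPSC (231 bp). A width of 1 kb or more was reached by 18 ESC members (0.213%) and 50 iPSC members (1.85%), and in other interior windows by 0.0596% and 1.57%. The interval of the ESC share (0.126 to 0.336%) lay above that of other interior windows (0.0448 to 0.0777%). However, 9 of the 18 wide ESC peaks lay in the single window on chromosome 6. The gap between these intervals thus rests in large part on that window, and the share without it was not computed. In dense windows near the ends the shares were 0.236% for ESC and 2.86% for iPSC, so wide peaks were not particular to the members. By −log10 q-value, 11.1% of ESC members (10.4 to 11.8%) and 8.14% of iPSC members (7.14 to 9.24%) stood in the top 10% of their autosomal list. In other interior windows these shares were 8.95% and 8.05%, and in dense windows near the ends 12.2% and 12.5%. By these counts iPSC peaks of high rank were relatively fewer in the members than in those windows.

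At 1850 sites a single ESC peak and a single iPSC peak overlapped each other and nothing else. Summits were a median of 19 bp apart, and 81.0% were within 50 bp. The iPSC fold was higher at 76.0% of these sites (74.0 to 77.9%), and in other interior windows this share was 75.8%. The median iPSC fold was 2.47 and the median ESC fold 2.03. Taken relative to the lowest background of its own list, the iPSC pileup was higher at 1.41% of the sites and the iPSC background at 2.43%. The median relative pileup was 7.56 for iPSC and 10.4 for ESC, and the median relative background 2.98 and 4.93. Levels are relative to each list's own libraries, so these shares do not compare methylation between the cell types. The iPSC peak was wider at 41.0% (38.8 to 43.3%), against 45.6% (44.7 to 46.5%) in other interior windows. These sites were called in both lists, and each list has its own limit for a call.

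Single peaks of the members are given by position, counted from 1. Widest in the iPSC list was a peak of 3260 bp on chromosome 10 from 61267783 to 61271042 at a fold of 2.51 and overlapped an ESC peak of 460 bp. The next were 2504 bp on chromosome 3 from 33587102 to 33589605 and 2260 bp on chromosome 3 from 34430558 to 34432817, each overlapping ESC peaks. The widest ESC peaks were 1541 bp on chromosome 6 from 135742522 to 135744062, 1481 bp on chromosome 19 from 33601962 to 33603442 and 1291 bp on chromosome 3 from 34417152 to 34418442. All of these also overlapped iPSC peaks, of which the first by position were 222, 557 and 420 bp wide.

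Among overlapping peaks the highest iPSC folds were on chromosome 3 from 39603529 to 39603743 (5.35, with an ESC fold of 3.10), chromosome 3 from 35874296 to 35874527 (5.17 and 3.15) and chromosome 20 from 25808281 to 25808735 (5.11 and 1.42). At the last site the ESC pileup was 220 fragments over a background of 154.8, and the iPSC pileup 116.6 over 22, so the low ESC fold went with a high background. Among ESC peaks without a partner the highest folds were on chromosome 10 from 59663334 to 59663555 (5.61, 90 fragments over 15.2), chromosome 7 from 15317493 to 15317707 (4.93) and chromosome 20 from 56242713 to 56242982 (4.73). Among iPSC peaks without a partner they were on chromosome 10 from 79532673 to 79532999 (6.59, 134.6 fragments over 19.6), chromosome 3 from 37839209 to 37839880 (6.32) and chromosome 3 from 33891263 to 33891781 (5.67). The last 3 lie in windows with 129, 123 and 250 ESC peaks, none of which touches them.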

How the data were processed

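The authors deposited 1 MACS2 peak list for ESC and 1 for iPSC, with 6 MeDIP and 6 input libraries per cell type in the labels. The submitters' processing notes name MACS2, deepTools, SAMtools 1.10 and Picard 2.239. The sources used here do not give the aligner, MACS2 version and options, genome build or the way libraries were combined, and depth per library is unknown. Each deposited peak carries a fold (a linear ratio), a −log10 p-value, a −log10 q-value (1.30 or more in both lists) and a score, which was not used. Start, end and summit positions are as deposited.

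Peaks were placed in 1 Mb windows by their start. Overlap meant at least 1 bp. Intervals are exact Clopper-Pearson at 95%. Ratios of counts use the interval of iPSC among both lists' peaks. Pileup and background were recovered from fold, as (pileup + 1)/(background + 1), and the Poisson p-value, taking the solution nearest to whole fragments (ESC) or multiples of a fitted factor of 0.690 (iPSC). A solution within 0.02 fragments was found for 100% of ESC and 99.9% of iPSC autosomal peaks, and a second one for 5.29% and 8.29%. The step was tested on simulated peaks.

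On 10 of 20 autosomes the peaks run past the last gene of the only annotation at hand (Panubis1.0), so no gene or sequence is given. The windows and members were chosen with earlier results of these data known. Windows named are the 10 with most ESC peaks, the 3 highest and 3 lowest by iPSC per ESC peak, all runs, and those nearest the limit. Peaks named are the 3 widest of each list and the 3 of highest fold per overlap class. The window on chromosome 6 and chromosomes 3 and 19 were described further after their values were seen. Counts were made with pandas 2.3.3 and numpy 2.4.6 in Python 3.11.15, intervals with scipy 1.17.1 and figures with matplotlib 3.10.9.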

Additional observations from a re-analysis of the deposited data

How the results depend on the processing

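No paired analysis was possible because the libraries of a cell type share 1 list, and for that reason no replicate could be left out. The number of windows was 129 at 100 ESC peaks, 21 at 150, 25 at more than 20 Mb from an end and 13 when chosen from peaks of −log10 q of at least 5. It was 56 with windows shifted by 0.5 Mb or peaks placed by summit. The iPSC peaks per 100 ESC peaks were 29.3 at 100 ESC peaks, 34.9 at 150, 33.9 at −log10 q of at least 5, 30.5 without chromosome 3 and 117.6 with the ESC list at the length of the iPSC list. In that setting, which kept only the ESC peaks of highest −log10 q, the other interior windows gave 86.5 and the dense near-end windows 129.3. The order was the same as deposited, and it also held after merging peaks, at −log10 q of at least 5 and at 100 and 150 ESC peaks. Of iPSC peaks, the part that lay on ESC peaks was 72.5% at 150 ESC peaks, 63.2% at −log10 q of at least 5, 30.5% with equal list lengths and 63.3% for an overlap of 50% of both peaks. Of ESC peaks, the part that lay on iPSC peaks was 20.4% at 100 ESC peaks, 25.7% at 150, 24.3% at more than 20 Mb, 21.5% at −log10 q of at least 5, 35.7% with equal lengths, 20.2% for 50% overlap and 21.6% without chromosome 3. The iPSC density relative to other interior windows was 4.47 times at 100 ESC peaks, 6.67 at 150, 6.57 at more than 20 Mb, 4.78 without chromosome 3 and 5.15 without chromosome 6. The cause of these moves was not tested. Leaving out chromosomes 3, 19 or 6 was chosen after seeing the data. Depth per library is unknown, so no limit from depth can be given.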

Other observations

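Some interior windows were rich in iPSC peaks without reaching 120 ESC peaks. Of the 61 interior windows with 39 or more iPSC peaks, 23 were such windows, on 10 chromosomes, with 74 to 118 ESC and 39 to 73 iPSC peaks. Together they held 1088 iPSC and 2380 ESC peaks, or 45.7 per 100. This is above the 31.9 of the dense interior windows, but the iPSC count chose these windows and the ESC count chose the others, so the difference is fixed in part by the choice. The fullest was chromosome 1 from 133 to 134 Mb, with 73 iPSC and 113 ESC peaks, and 61.6% of its iPSC peaks lay on ESC peaks. Next were chromosome 19 from 35 to 36 Mb with 64 and 118 and chromosome 19 from 36 to 37 Mb with 59 and 95. Of the 23, 3 were on chromosome 19 and none on chromosome 3, and 6 adjoined a dense interior window. These windows were singled out after their values were seen.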
